A study of Mus musculus with 3 samples.

Results

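The 10 genes described here encode enzymes and core subunits that set or remove methylation on lysine 4 and lysine 27 of histone H3: Kmt2b and Kmt2d (H3K4 methyltransferases), Kdm1a, Kdm1b and Kdm5b (H3K4 demethylases), Ezh1, Ezh2, Eed and Suz12 (Polycomb repressive complex 2, PRC2) and Kdm6b (an H3K27 demethylase). They were chosen by function, and their members in the data are the 2 kb windows that overlap their gene bodies in GENCODE M21 on GRCm38, 215 of 1186323 valid windows. No window of these gene bodies had been filtered out. What was measured is H3K36me3, the trimethyl mark that the elongating polymerase leaves over transcribed gene bodies, and not the level of any of these transcripts or proteins. The assay was a native ChIP-seq for very few cells, which digests unfixed chromatin with micrococcal nuclease, on 3 pools of about 280 germinal vesicle (GV) oocytes from 25-day-old wildtype C57BL6/Babr mice. All 3 libraries form a single group, replicate 2 was made with less antibody, and no source says whether the pools came from separate animals, so errors and p-values below measure the spread between these samples. A second deposited table gives, for each window with at least 1 mark, pooled calls that include H3K4me3 and H3K27me3 from earlier libraries of the same laboratory, with no replicates. A valid window that it does not list was taken as having no mark.

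H3K4me3 usually marks promoters of active or poised genes, and in growing oocytes it also spreads into broad domains away from promoters. H3K27me3 is deposited by PRC2, in which EZH1 or EZH2 is the catalytic subunit and EED and SUZ12 are needed for activity, and it lies over silent or lowly transcribed regions. H3K36me3 hinders PRC2 on the same histone tail, and in growing oocytes DNA methylation is placed mainly in regions that carry H3K36me3.

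A window is called enriched when the mean RPKM (the authors' name for reads scaled to depth and window size) of the replicates is above 1. The valid windows held 7888140 reads in replicate 1, 2692510 in replicate 2 and 3166564 in replicate 3, and a value above 1 took 8, 3 and 3 reads. In the windows of the 10 genes the median was 14, 4 and 6 reads, and 0, 24 and 11 of the 215 windows had no read. A single window is therefore imprecise in replicates 2 and 3, and levels below are means over windows of a gene unless a window is named. As a check of the cell type, marker genes were set beside protein-coding genes with at least 3 windows. Of the latter, 55.9% had a mean above 1. Of 10 oocyte marker genes (the zona pellucida genes, Gdf9, Bmp15 and others) 10 did, from 1.53 RPKM in Nlrp5 to 3.73 in Bmp15. Of 8 genes of follicular somatic cells, 3 did (Nr5a2 with 2.02 RPKM, Amh with 1.39 and Inhba with 1.05), and the others were Fshr at 0.353, Foxl2 at 0.420, Inha at 0.534, Cyp17a1 at 0.704 and Cyp19a1 at 0.714, each with over 50% of its windows called for H3K27me3. Amh and the oocyte marker Ooep have only 2 windows each, below the minimum of 3. In replicates 1 to 3 Amh had 2.17, 0.991 and 1.02 RPKM, and Ooep 1.49, 0.595 and 2.71.

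The promoters of 8 of the 10 genes were matched in RefSeq (GRCm38.p6); those of Kmt2b and Kdm6b were not. The 250 bases before the start are shown for the 3 H3K4 demethylase genes, because these genes had the highest and the 2 lowest H3K36me3 levels. Each is written 5′ to 3′ on the gene's strand, with the CG dinucleotides in capitals. Kdm1a is at chr4:136602724-136602973 (reverse strand), Kdm1b at chr13:47043249-47043498 (forward strand) and Kdm5b at chr1:134559928-134560177 (forward strand).
Kdm1a: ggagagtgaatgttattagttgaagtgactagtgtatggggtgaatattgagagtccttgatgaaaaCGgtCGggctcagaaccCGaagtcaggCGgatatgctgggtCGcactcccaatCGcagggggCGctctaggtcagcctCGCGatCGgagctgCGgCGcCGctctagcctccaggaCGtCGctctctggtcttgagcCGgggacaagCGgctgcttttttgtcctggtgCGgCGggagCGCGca
Kdm1b: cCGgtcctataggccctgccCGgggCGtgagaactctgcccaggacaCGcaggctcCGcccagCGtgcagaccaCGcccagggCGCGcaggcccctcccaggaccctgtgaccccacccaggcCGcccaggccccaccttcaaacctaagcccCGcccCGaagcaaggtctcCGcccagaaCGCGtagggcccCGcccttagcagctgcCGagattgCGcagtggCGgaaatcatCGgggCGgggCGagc
Kdm5b: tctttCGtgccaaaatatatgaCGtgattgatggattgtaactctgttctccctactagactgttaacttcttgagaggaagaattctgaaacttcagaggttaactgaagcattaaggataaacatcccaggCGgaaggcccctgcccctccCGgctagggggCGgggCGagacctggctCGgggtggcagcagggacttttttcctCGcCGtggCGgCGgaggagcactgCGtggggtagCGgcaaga
Kdm1a held 21 CG dinucleotides, Kdm1b 22 and Kdm5b 13. Over the 8 matched genes the number ran from 12 in Eed to 37 in Suz12, and 8 of 8 lay above the median of 6 over 32851 RefSeq promoters. For Ezh2 the RefSeq start lay 311 bases from the GENCODE start. Its 250 bases therefore lie inside the gene body used here. The GC box letters GGCGGG, searched on both strands, occurred 3 times in Kdm1b, 2 times in Suz12 and 1 time each in Kdm1a and Kdm5b. Thus 4 of 8 held the letters, against 32.5% of all promoters. All 3 sequences shown hold the letters, and Kmt2d, Ezh1, Ezh2 and Eed had none. A link between the letters and the H3K36me3 level was not tested.

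H3K36me3 lay over most of these genes. The mean over the gene body was above 1 RPKM in 9 of 10, where 55.9% of the 18807 protein-coding genes with at least 3 windows were. The median of the 10 genes was 2.27 RPKM against 1.24 for protein-coding genes, and 8 of 10 were above the upper quartile of 1.99. By window, 174 of 215 were enriched (80.9%, against 51.2% of the windows of protein-coding genes). In 128 windows each replicate was above 1 on its own (59.5%, against 34.0%). Kdm5b was the gene below 1, and without it 161 of 177 windows were enriched (91.0%). Because a window of 2 kb can hold reads of more than 1 gene and ChIP reads carry no strand, 26 of the windows cannot be assigned to these genes alone.

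**Figure D1:**
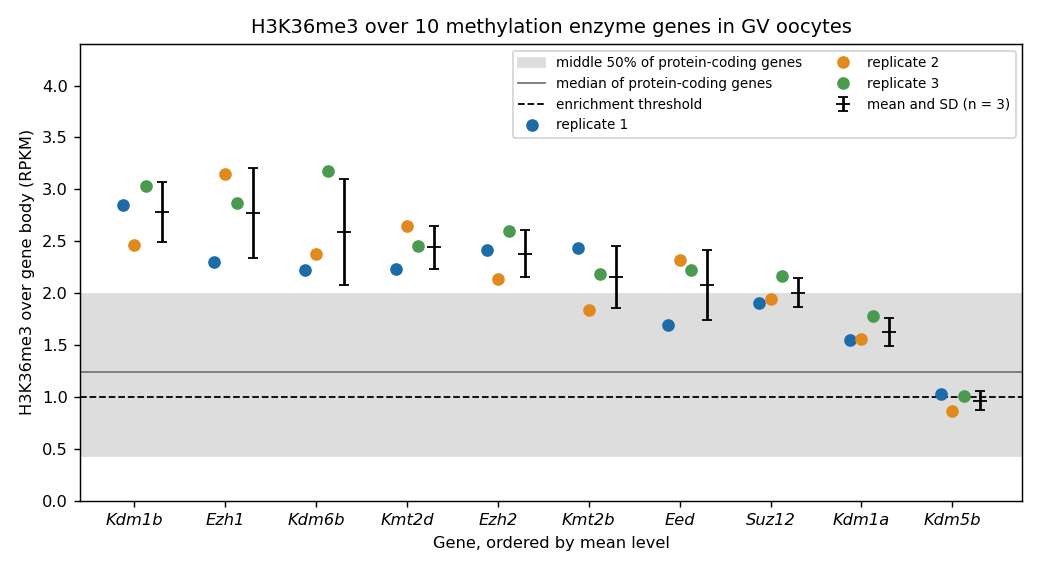
Mean H3K36me3 RPKM over the gene body (y axis) of the 10 genes in order of their mean, with a dot per replicate and a black bar for mean and SD (n = 3); the grey band spans the quartiles of protein-coding genes (0.434 to 1.99), the grey line their median (1.24), and the dashed line is the threshold of 1. 8 genes have their mean above the band, Kdm1a (1.63) lies inside it above the median, and Kdm5b (0.966) lies at the threshold.

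Among the H3K4 methyltransferases, both members were covered. Kmt2b (ENSMUSG00000006307.16, chr7:30568858-30588726, reverse strand) encodes MLL2, an enzyme needed for the bulk of H3K4me3 that oocytes gain away from active promoters. Its mean was 2.43, 1.84 and 2.18 RPKM in replicates 1 to 3, or 2.15 ± 0.298 (SD, n = 3) from 319 reads in 11 windows. Replicate 2 was the lowest, and all 3 were well above 1. Of the 11 windows 9 were enriched, but only 4 in every replicate. Kmt2d (ENSMUSG00000048154.17, chr15:98831669-98871204, reverse strand) encodes MLL4, which mainly places H3K4me1 at enhancers. It had 2.23, 2.64 and 2.45 RPKM in replicates 1 to 3, or 2.44 ± 0.206 (SD, n = 3), and 20 of its 21 windows were enriched, 17 of them in every replicate. Here replicate 2 was the highest. The log2 ratio of Kmt2d over Kmt2b was -0.12, 0.52 and 0.17 in the replicates, a mean of 0.19 ± 0.32 (SD, n = 3), with a 95% interval from -0.62 to 1.00. The ratio was positive in 2 of 3 replicates (exact sign-flip permutation test, two-sided, p = 0.50; 0.50 after Benjamini-Hochberg adjustment over 3 pairs of paralogs). The smallest p that 3 replicates allow is 0.25, so no pair could pass 0.05.

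The 2 amine oxidase demethylases differed in the same direction in each replicate. Kdm1b (ENSMUSG00000038080.17, chr13:47043499-47085279, forward strand) encodes LSD2, which removes H3K4me1 and H3K4me2 and is required in the oocyte for DNA methylation at a number of imprinted loci. It had 2.85, 2.47 and 3.03 RPKM in replicates 1 to 3, and its mean of 2.78 ± 0.287 (SD, n = 3) was the highest of the 10 genes, at the 97.7th percentile of protein-coding genes. Enriched windows were 21 of 22. Kdm1a (ENSMUSG00000036940.15, chr4:136550540-136602723, reverse strand) encodes LSD1, which acts on the same methyl states. Its level was 1.54, 1.56 and 1.78 RPKM, or 1.63 ± 0.133 (SD, n = 3), at the 61.6th percentile, with 21 of 27 windows enriched. No replicate of Kdm1a reached the lowest replicate of Kdm1b. The log2 ratio of Kdm1b over Kdm1a was 0.89, 0.67 and 0.77, a mean of 0.77 ± 0.11 (SD, n = 3; 95% interval 0.50 to 1.05), or 1.71-fold. It was positive in 3 of 3 replicates, with an exact permutation p of 0.25, the smallest possible (adjusted 0.50).

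Kdm5b was the lowest gene. It encodes a demethylase of the JARID1 family that removes H3K4me3 and H3K4me2 (ENSMUSG00000042207.17, chr1:134560171-134635285, forward strand). Its level was 1.03, 0.866 and 1.01 RPKM in replicates 1 to 3, or 0.966 ± 0.0873 (SD, n = 3) from 483 reads in 38 windows. The replicates lay on both sides of 1: without replicate 2 the mean was 1.02, and all 10 genes were then above 1. Its median window had 0.761 RPKM. Only 13 of 38 windows were enriched (34.2%), and 6 of them in every replicate. Of protein-coding genes, 43.3% had a lower level.

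All 4 PRC2 core genes were covered. Ezh1 (ENSMUSG00000006920.14, chr11:101191115-101226463, reverse strand), the catalytic subunit found mostly in non-dividing cells, had 2.30, 3.15 and 2.87 RPKM in replicates 1 to 3, or 2.77 ± 0.432 (SD, n = 3). All 19 of its windows were enriched, 17 in every replicate. Ezh2 (ENSMUSG00000029687.16, chr6:47530139-47595341, reverse strand), the more active of the catalytic subunits, had 2.41, 2.14 and 2.59 RPKM, or 2.38 ± 0.230 (SD, n = 3), with 32 of 33 windows enriched. Replicate 2 was the highest for Ezh1 and the lowest for Ezh2. The log2 ratio of Ezh1 over Ezh2 was -0.07, 0.56 and 0.14, a mean of 0.21 ± 0.32 (SD, n = 3; 95% interval -0.58 to 1.00; exact permutation p = 0.50, adjusted 0.50), and the paralogs could not be told apart by their level. Without replicate 2 the ratio was 0.039.

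Eed (ENSMUSG00000030619.9, chr7:89954654-89980983, reverse strand) encodes the subunit that binds H3K27me3 and so lets PRC2 spread the mark. It had 1.70, 2.32 and 2.22 RPKM in replicates 1 to 3, or 2.08 ± 0.336 (SD, n = 3), with 12 of 14 windows enriched. Suz12 (ENSMUSG00000017548.15, chr11:79993106-80034123, forward strand), the scaffold of the complex, had 1.90, 1.95 and 2.17 RPKM, or 2.01 ± 0.143 (SD, n = 3), with 19 of 22 windows enriched. Both were near the upper quartile of protein-coding genes. Kdm6b (ENSMUSG00000018476.7, chr11:69398508-69413675, reverse strand) encodes JMJD3, which removes H3K27me3. It is the shortest of the genes, with 8 windows and 254 reads, and its level of 2.22, 2.38 and 3.17 RPKM had the widest spread, 2.59 ± 0.509 (SD, n = 3). All 8 windows were enriched. The high value of replicate 3 came in large part from the second window, where it had 8.12 RPKM against 2.72 and 3.17 in replicates 1 and 2.

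In order of level the genes were Kdm1b, Ezh1, Kdm6b, Kmt2d, Ezh2, Kmt2b, Eed, Suz12, Kdm1a and Kdm5b. Most neighbours in this order differed by less than the spread of their difference over the replicates. Suz12 was above Kdm1a by 0.379 ± 0.0187 RPKM (SD, n = 3) and Kdm1a above Kdm5b by 0.661 ± 0.130, each in 3 of 3 replicates. Ezh2 and Kmt2b differed by 0.230 ± 0.224, in this order in 2 of 3 replicates. Thus the 2 lowest genes were set apart, and the order of the upper genes was not resolved.

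Levels were next followed along each gene, from the annotated start. All 10 start windows were called for H3K4me3, as were 78.0% of the start windows of protein-coding genes. H3K36me3 was enriched in 5 of these 10 windows (Kmt2d, Ezh1, Ezh2, Eed and Kdm6b), against 22.8%, but 3 of the 5 rested on unequal replicates. In Eed the start window had 0.272, 0 and 4.74 RPKM in replicates 1 to 3, which is 2, 0 and 14 reads. In Ezh1 it had 0.272, 2.77 and 0.677, and in Ezh2 2.04, 1.59 and no read. In these windows 1 or 2 replicates carried the call. The start window of Kmt2d was above 1 in every replicate (1.36, 1.98 and 1.02), as was that of Kdm6b (1.77, 1.19 and 4.06).

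Within the gene body, the first 2 enriched windows in a row began in the first or second window in 8 genes. The share of protein-coding genes with such an early pair was not computed. In the genes other than Kdm5b, 161 of 177 windows were enriched, so an early pair is no distinct feature of these genes. Nor does it mark where H3K36me3 begins in all of them. The 10 kb upstream were enriched in 5 of 5 windows at Kmt2b and Kdm1b, and the run of Ezh2 reached 4.66 kb before its start. The first enriched pair came later in Kdm1a and Kdm5b, the genes with the lowest levels. In Kdm1a the first 4 windows had 0.136, 0.407, 0.496 and 0.542 RPKM, and the first enriched pair of windows began with window 5, 7.72 kb from the start, at 1.45. Below 1 again were windows 10 (0.826) and 22 (0.836). The first 3 of these windows were called for H3K4me3. In Kdm5b no window among the first 17 was enriched, and windows 18 to 20, from 34.8 kb, had 1.25, 1.32 and 1.04 RPKM. The next 6 windows were below 1 again, between 0.0905 and 0.784 RPKM.

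**Figure D2:**
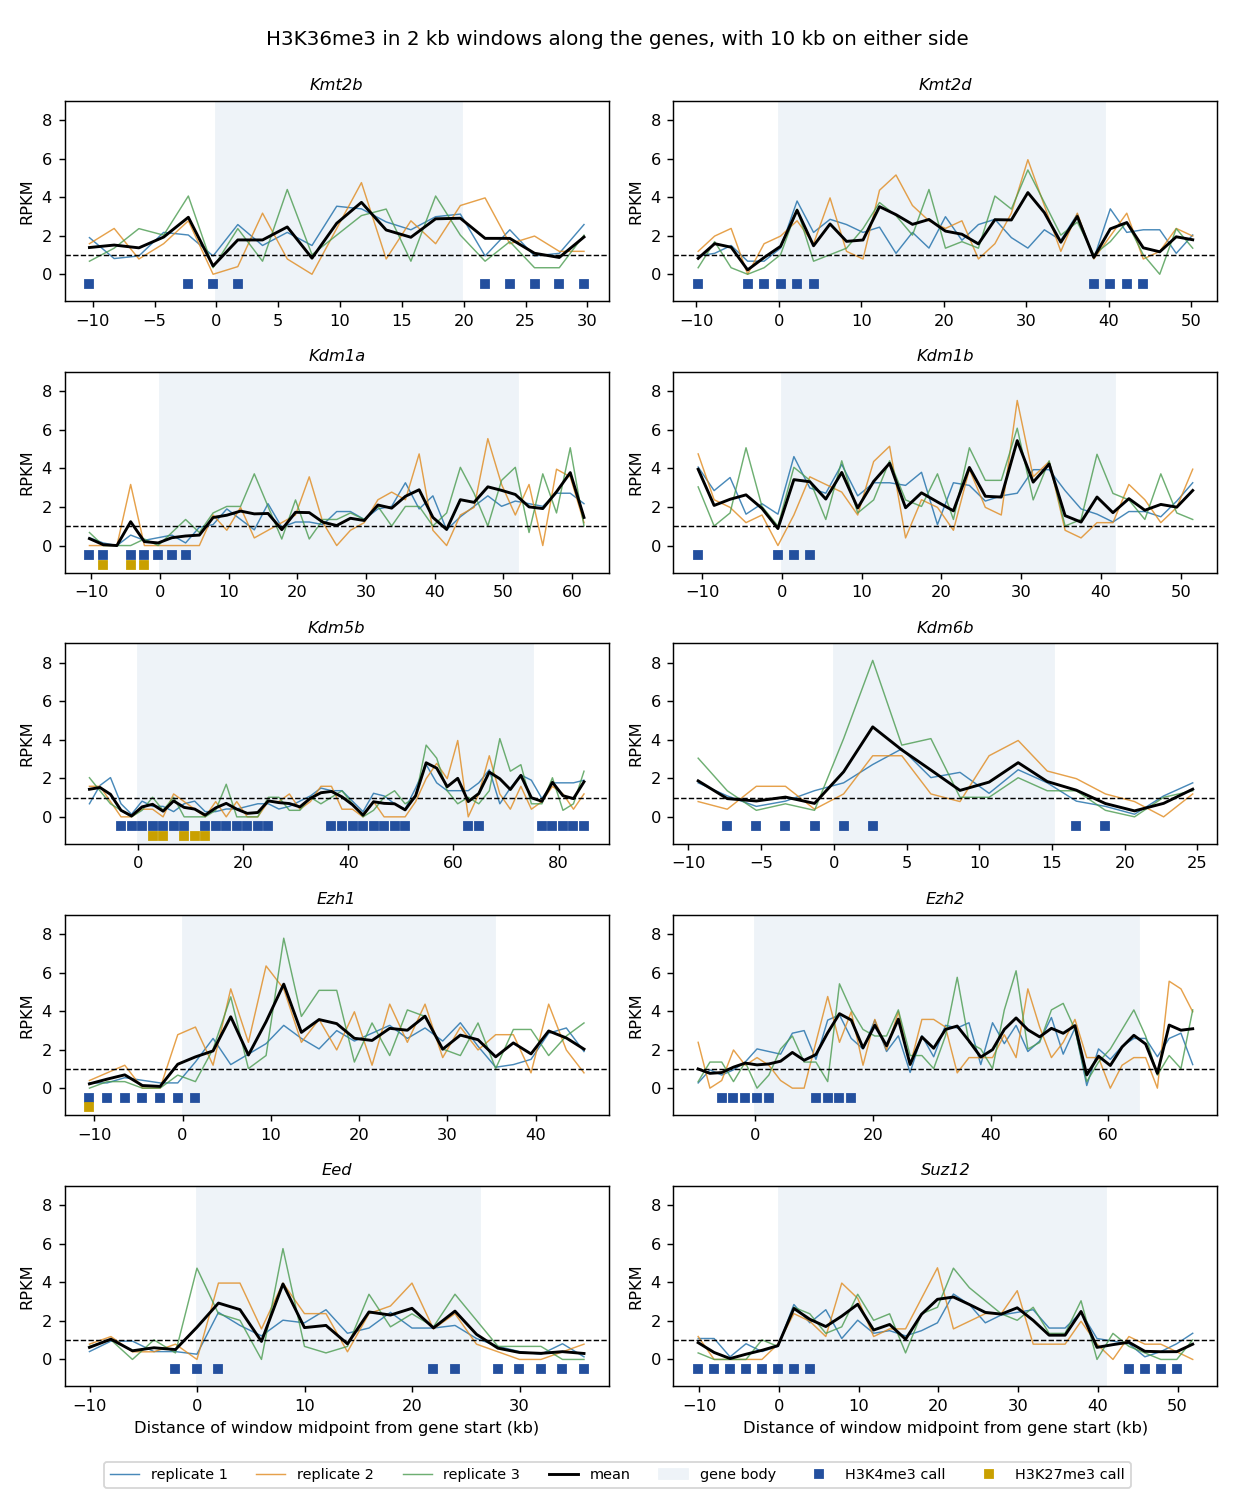
H3K36me3 RPKM (y axis) in 2 kb windows against the distance of the window midpoint from the gene start (x axis, kb, in the direction of transcription), for the 10 genes and 10 kb on either side; thin lines are the replicates, the black line is their mean, the dashed line is the threshold of 1, the shaded area is the gene body, and blue and yellow squares below 0 mark windows called for H3K4me3 and H3K27me3. Inside the gene body, the first 2 windows in a row with the mean above 1 come within the first windows in 8 genes, at 7.72 kb in Kdm1a and at 34.8 kb in Kdm5b, where the line falls below 1 again from 40.8 to 50.8 kb and squares fill most of the first 25 kb.

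The body was then split into 3 equal parts by window midpoint. The last part was higher than the first in 5 of 10 genes, against 72.6% of protein-coding genes, and in 3 of 10 in every replicate, against 46.5%. In Kdm5b the level was 0.467 ± 0.0571 RPKM (SD, n = 3) in the first part, 0.783 ± 0.135 in the middle and 1.63 ± 0.153 in the last. The log2 ratio of last over first was 1.59, 1.81 and 2.02 in the replicates, a mean of 1.81 ± 0.21 (SD, n = 3) or 3.50-fold. This was the steepest of the 10 genes, and the replicates differed little.

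Kdm1a had 1.08 ± 0.482 RPKM in the first part and 2.33 ± 0.186 in the last (SD, n = 3), with log2 ratios of 1.02, 1.97 and 0.63. Its last 3 windows, which are shared with Luzp1 on the opposite strand, had 3.05, 2.86 and 2.65 RPKM. The rise of Kdm1a without these shared windows was not tested by replicate. In Kmt2b the first part had 1.61 ± 0.458 and the last 2.50 ± 0.304, with log2 ratios of 0.63, 1.00 and 0.38. Its first part includes the start window, which has its midpoint at -0.275 kb and held 7, 0 and 1 reads in replicates 1 to 3. The rise of Kmt2b without its start windows was not tested by replicate. Each of these 3 genes was higher in the last part in 3 of 3 replicates, with an exact two-sided sign-flip permutation p of 0.25, the smallest possible, and 0.714 after Benjamini-Hochberg adjustment over the 10 genes. In the other genes the last and first part did not differ beyond the spread between replicates. Their mean log2 ratio ran from -0.24 ± 0.34 in Suz12 to 0.19 ± 0.41 in Kmt2d (SD, n = 3), apart from Kdm6b, whose replicates spread from -1.85 to 0.34 over 3 windows in each of these parts.

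**Figure D3:**
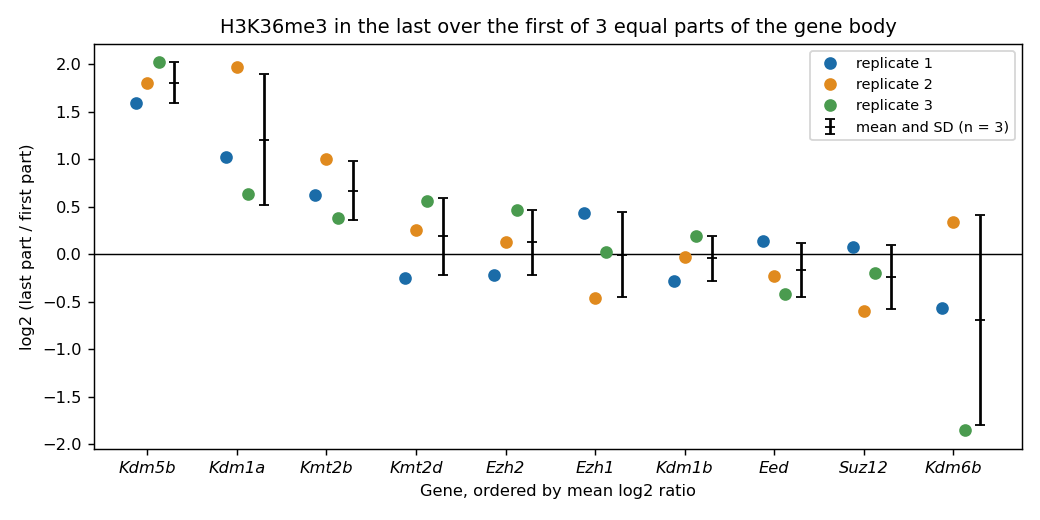
Log2 ratio of H3K36me3 in the last against the first part of a body split in 3 (y axis) for the 10 genes in order of the mean ratio, with a dot per replicate and a black bar for mean and SD (n = 3). All dots of Kdm5b, Kdm1a and Kmt2b are above 0, and those of the other 7 genes lie on both sides of 0.

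Marks were compared window by window. H3K4me3 was called in 52 of the 215 windows (24.2%, against 26.2% of the windows of protein-coding genes), and 22 of these were in Kdm5b. H3K27me3 was called in 5 windows (2.33%, against 25.9%), all in Kdm5b. The other 9 genes had none, as did 55.1% of protein-coding genes. H3K36me3 alone was called in 148 windows (68.8%, against 41.4% of the windows of protein-coding genes) and H3K36me3 with H3K4me3 in 26 (12.1%, against 6.55%). H3K4me3 alone was called in 22 (10.2%, against 10.2%) and H3K4me3 with H3K27me3 in 4 (1.86%, against 8.77%). H3K27me3 alone was called in 1 (0.465%, against 13.9%) and no mark in 14 (6.51%, against 15.9%). No window of these genes was called for both H3K36me3 and H3K27me3 (0 windows, against 3.17%), and only 5 had an H3K27me3 call. The 155 windows that touch an exon had 2.16 ± 0.175 RPKM and the 60 that lie in introns alone 1.78 ± 0.110 (SD, n = 3), and the H3K36me3 free windows at the beginning of Kdm5b and Kdm1a are mostly of the second kind.

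**Figure D4:**
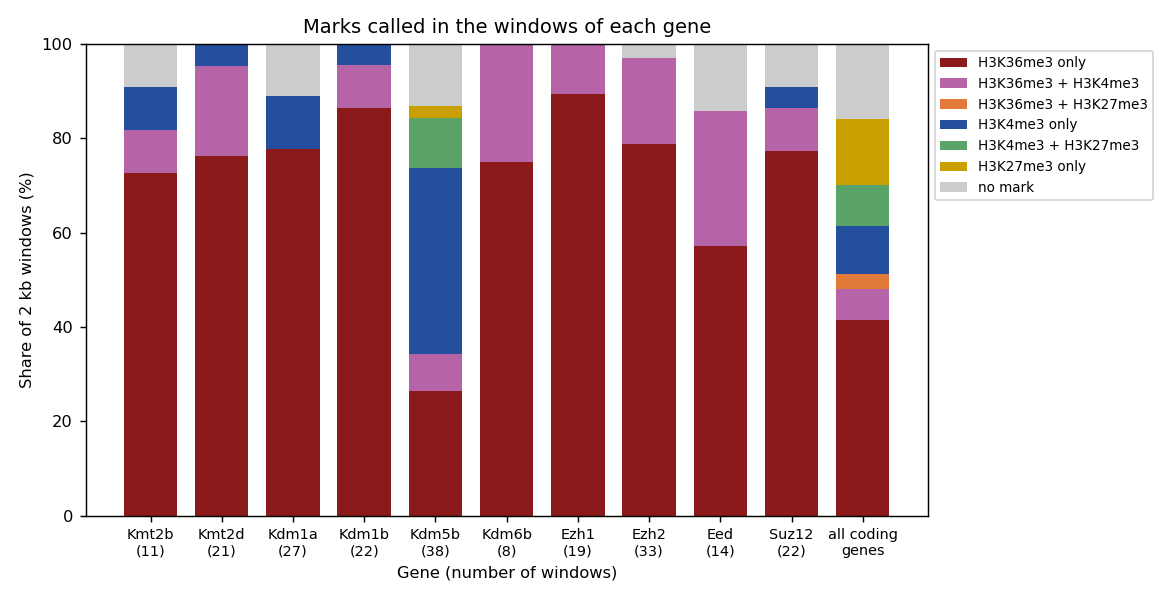
Share of 2 kb windows (y axis, %) with each combination of called marks in the 10 genes (number of windows below each name) and in the windows of all protein-coding genes; the category H3K36me3 + H3K27me3 includes windows that also carry H3K4me3. H3K36me3 alone is the largest share in 9 genes, whereas H3K4me3 without H3K36me3 is the largest in Kdm5b.

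In the 9 genes other than Kdm5b, H3K4me3 lay in short stretches at the start, of 2 or 3 windows each. Of the 30 H3K4me3 windows of these genes, 23 were also enriched for H3K36me3, against 37297 of 135305 H3K4me3 windows of protein-coding genes. The level in these 30 windows was 1.95, 1.81 and 2.13 RPKM in replicates 1 to 3, against 2.22, 2.33 and 2.52 in the 147 windows without the call. Windows with H3K4me3 were lower in each replicate, at 1.96 ± 0.162 against 2.36 ± 0.152 (SD, n = 3). Most of them are at gene starts. The H3K4me3 stretches away from the start had means of 3.00 RPKM in Ezh2, 2.07 in Eed and 1.62 in Kmt2d, on both sides of 2.36. The lower level is therefore not a trait of every H3K4me3 window, and position and H3K4me3 were not tested apart.

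Away from the start, 3 of these genes had a further stretch. In Ezh2 windows 6 to 9 were called for H3K4me3, and all 4 were enriched for H3K36me3, with a mean of 3.00 RPKM, above the gene's own mean. The nearest start of a protein-coding transcript is that of an alternative Ezh2 transcript, 341 bases away, and the processed pseudogene Gm44282 lies in window 6 on the opposite strand. The last 2 windows of Kmt2d carried H3K4me3 beside the start of Prkag1, which begins 148 bases past the end of Kmt2d on the same strand. In Eed, windows 12 and 13 carried both marks, with a mean of 2.07 RPKM, and no protein-coding transcript starts within 4841 bases.

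In Kdm5b, H3K4me3 was called in 22 of 38 windows (57.9%), in stretches of windows 1 to 5, 7 to 13, 19 to 26 and 32 to 33. A share of at least 50% of windows with the call was found in 29.0% of protein-coding genes. Of the 13 windows in the first part 12 were called for H3K4me3 and none for H3K36me3, and the 5 H3K27me3 windows of the gene lay here, between windows 2 and 7. In the last part 10 of 13 windows were enriched for H3K36me3 and 3 were called for H3K4me3. The H3K4me3 stretches of windows 7 to 13 and 19 to 26 had means of 0.413 and 0.700 RPKM, and the nearest annotated protein-coding start lay 11809 and 35809 bases from them. Windows 27 to 31 and windows 33 to 37 form the longest enriched runs of the gene, of 10 kb each. The first run had 1.10, 2.81, 2.53, 1.56 and 2.00 RPKM and no H3K4me3 call. The second run had 1.21, 2.32, 1.98, 1.42 and 2.16 RPKM, and its window 33 was called for H3K4me3. Along this gene H3K36me3 and H3K4me3 therefore lay mostly in separate windows, and 3 windows had both. Over all protein-coding genes, 37297 of 135305 H3K4me3 windows had both.

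The longest enriched runs of Ezh1, Kdm1b and Kdm1a went on far past the gene end. Those of Kmt2b, Kdm6b and Eed reached 6.86, 2.51 and 0.653 kb past it, and those of Kmt2d, Kdm5b, Ezh2 and Suz12 0 kb. The share of protein-coding genes with such runs was not computed. The longest run touching Ezh1 was 72 kb and continued for 35.1 kb past its end. It covered the 11 windows of Cntnap1, which lies on the opposite strand 391 bases away and had 2.17 RPKM, and went on beyond that gene. The longest run touching Kdm1b was 62 kb, with 20.7 kb past the end over Dek, on the opposite strand. The run of Kdm1a was 50 kb and went on for 40.5 kb into Luzp1, which overlaps the end of Kdm1a on the opposite strand. In these 3 genes the 10 kb after the end were enriched in 5 of 5 windows, with 2.34 RPKM for Ezh1, 2.25 for Kdm1b and 2.39 for Kdm1a.

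The end of the mark was sharper at Eed and Suz12. The 10 kb after Eed had 0.462, 0.317 and 0.406 RPKM in replicates 1 to 3, with 0 of 5 windows enriched and 5 called for H3K4me3. After Suz12 the level was 0.706, 0.634 and 0.406 RPKM, with 0 of 5 enriched and 4 called for H3K4me3. The level before the start was low at Ezh1 (0.353, 0.476 and 0.135 RPKM), Kdm1a (0.272, 0.634 and 0.203) and Suz12 (0.706, 0.238 and 0.271). These upstream regions carried H3K4me3 in 5, 4 and 5 of 5 windows, and H3K27me3 in 1, 3 and 0. Before Eed the level was 0.625, 0.713 and 0.609 RPKM, with H3K4me3 in 1 and H3K27me3 in 0 of 5 windows.

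By contrast the 10 kb before Kdm1b had 2.85, 2.38 and 2.57 RPKM, with 5 of 5 windows enriched, and Tpmt overlaps this start on the opposite strand with 2.27 RPKM. Before Kmt2b the level was 1.58, 1.82 and 2.10 RPKM, also with 5 of 5 windows enriched, and in replicate 2 it was close to that of the body (1.84). The gene body was above the 10 kb upstream in every replicate in 8 of 10 genes, all but Kdm1b and Kdm5b, against 50.7% of protein-coding genes. It was above the 10 kb downstream in every replicate in 5 of 10 genes (Kmt2d, Ezh1, Eed, Suz12 and Kdm6b), against 42.6%. Inside Suz12 the non-coding gene Gm26563, on the opposite strand, shares 7 of its 22 windows, and Kdm6bos shares 2 windows of Kdm6b, so that reads of these windows cannot be assigned to one strand.

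Other genes of the same systems were mostly covered too. Of 12 further H3K4 methyltransferases and core subunits 11 were above 1, with a median of 2.26 RPKM. The highest was Paxip1, a subunit of the MLL3 and MLL4 complexes, with 2.79 ± 0.278 (SD, n = 3). The lowest was Kmt2a, which encodes MLL1, the paralog of MLL2. It had 0.377, 0.396 and 0.288 RPKM, or 0.354 ± 0.0580 (SD, n = 3), with 0 of 40 windows enriched, 34 called for H3K4me3 and 39 for H3K27me3. Kmt2a was below every one of the 10 genes in each replicate. The other JARID1 demethylase genes tested, Kdm5c (2.87 RPKM) and Kdm5a (2.08), were both above 1, unlike Kdm5b.

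Of 9 PRC2 partner genes 8 were above 1, with a median of 2.15 RPKM and Phf1, a Polycomb-like subunit, the highest at 2.90. Epop, a small PRC2 accessory gene with 2 windows and 11 reads, was the lowest at 0.481 RPKM, and both windows were called for H3K27me3. Kdm6a, which encodes the demethylase UTX, had 1.73, 1.91 and 2.01 RPKM. Thus Kmt2a, Epop and Kdm5b were the genes with a mean at or below 1 among the 34 examined. Of protein-coding genes with at least 3 windows, 55.9% were above 1. Epop and Ezhip, with 2 windows each, are below that minimum.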

How the data were processed

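H3K36me3 was measured in 3 replicate pools of GV oocytes, which form 1 group. Per the study's methods the authors trimmed reads with Trim Galore, mapped them to GRCm38 with Bowtie2 2.2.9 and quantified windows of 2 kb with SeqMonk, leaving out windows with too little or too much input. Removal of duplicate reads is not stated, so reads may include PCR copies. The deposited RPKM values sum to between 1067250 and 1071600 per replicate, close to a CPM scale, and all are whole multiples of the value of 1 read (0.136, 0.396 and 0.338 in replicates 1 to 3), which gave the read numbers. The deposited categories of marks per window were read as calls, without values, and the 315168 valid windows not listed there were taken as unmarked; the H3K36me3 call equalled a mean above 1 in every window (0 differences).

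A gene's level is the mean over all windows that overlap its body in GENCODE M21. Bodies were split into 3 equal parts by window midpoint, runs are unbroken enriched windows, and flanks span 10 kb. Pairs of paralogs and parts were compared as log2 ratios within replicates, by exact enumeration of sign flips over replicates (a two-sided permutation test), with Benjamini-Hochberg adjustment; no model across windows was fitted. The 95% intervals of ratios come from the spread over 3 replicates. Scripts (Python 3.11.15, NumPy 2.4.6, pandas 2.3.3, SciPy 1.17.1) were tested on simulated data. All 10 genes are named; of the other lists, the highest, the lowest and genes mostly called for H3K27me3 are named. The genes, lists and tests were chosen with earlier results of these data known. Ezhip was matched through its older symbol AU022751 in RefSeq.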

Additional observations from a re-analysis of the deposited data

How the results depend on the processing

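Of 73 recomputed values of the main comparisons under 14 alternatives, 69 were kept (ratios in direction, shares within the replicate spread or a 95% exact binomial interval, counts within 1.5 times), 4 moved and 0 reversed. Only the ratios of the 3 pairs could be labelled reversed, and the binomial interval treats neighbouring windows as independent, which they are not. These rules are wide, so a kept value is not evidence of a stable result. The moved values follow from a higher threshold by construction: the share of enriched windows was 68.4% at 1.5 RPKM and 49.8% at 2, and the share above the threshold in each replicate 38.6% and 19.1%. Leaving out a replicate gave 9 to 10 genes above 1 (10 without replicate 2, when Kdm5b passed 1), 75.8 to 84.2% of windows enriched, 4 to 6 genes higher in the last part of the body, and log2 ratios of 0.039 to 0.35 for Ezh1 over Ezh2, 0.72 to 0.83 for Kdm1b over Kdm1a and 0.020 to 0.34 for Kmt2d over Kmt2b. Kdm5b also passed 1 (1.01 RPKM) when windows under 3 reads were left out. With the 2 windows at the gene start left out, 4 genes were higher in the last part of the body. Of 90 recomputed gene levels, 2 moved, both with the median over windows: Kdm5b to 0.761 and Suz12 to 2.17. Depth limits single windows most in replicate 2, where 1 read is 0.396 RPKM. No paired analysis was possible because the samples form a single group, so replicate numbers pair no samples between groups; the ratios above are between genes or gene parts within a replicate.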
